A study of Mus musculus with 8 samples.

Results

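The Hox genes examined here were Hoxa5, Hoxb2, Hoxb3, Hoxb4, Hoxb5, Hoxc4, Hoxc5, Hoxc6, Hoxd3 and Hoxd4, a set of 10 genes of paralog groups 2 to 6 that was chosen by name. They are 10 of the 25 Hox genes, and of the 19224 genes in all, with a column in the table of stellate ganglion neurons. The mouse has 39 Hox genes, and the other 14 had no column and were not analysed here. The table held 1303 single neurons of 8 subtypes named by the study: the noradrenergic NA1a, NA1b, NA1c, NA2 and NA3, the cholinergic Ach1 and Ach2, and Glut. The neurons came from 8 male C57BL/6J mice of 8 to 10 weeks, all of 1 condition, in which a retrograde adeno-associated virus with GFP had been placed in the heart and one with tdTomato in the front paws. No untreated mice were included, and left and right ganglia were combined, so the sides cannot be told apart. Values over mice rest on replicates 1 to 5, all of batch 2, with 1002 neurons. The remaining 301 neurons carried 3 mouse names that fitted more than 1 sample, and they entered pooled values only.

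Hox genes encode homeodomain transcription factors and lie in the HoxA, HoxB, HoxC and HoxD clusters. Within a cluster the genes are ordered, and this order follows the part of the head-to-tail axis in which each gene is first used: low paralog groups begin in the hindbrain, middle groups in the neck and upper trunk, and high groups in the lower trunk and tail. The set of Hox genes that a cell keeps active is therefore read as a record of its axial level. The stellate ganglion forms by fusion of the lowest cervical and the uppermost thoracic sympathetic ganglia, and its neurons descend from trunk neural crest. Hox proteins bind DNA with TALE cofactors of the Pbx, Meis and Pknox families, and Polycomb and trithorax proteins keep the clusters silent or active.

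In GENCODE M21, on GRCm38, the members of HoxC lie on the plus strand of chromosome 15: Hoxc5 at chr15:102967443-103017429, Hoxc6 at chr15:102998257-103011881 and Hoxc4 at chr15:103018934-103036852. Hoxd3 (chr2:74711927-74748442) and Hoxd4 (chr2:74711929-74729160) overlap on the plus strand of chromosome 2. They share 388 exon bases, which is 9.26% of the exon bases of Hoxd3 and 13.2% of those of Hoxd4, so some reads could belong to either. Hoxb2, Hoxb3, Hoxb4 and Hoxb5 lie on chromosome 11 and Hoxa5 on chromosome 6. The homeodomain recognises a short core, TAAT, and the promoters of the 2 members whose levels passed a test below are shown with each TAAT, on either strand, in capitals. They run from 250 bases before the start to 50 bases after it, 5′ to 3′, from RefSeq on GRCm38.p6, whose table held 5 of the 10 members. The Hoxc4 promoter is chr15:103034145-103034444 and that of Hoxd3 is chr2:74711743-74712042, both on the plus strand.
Hoxc4: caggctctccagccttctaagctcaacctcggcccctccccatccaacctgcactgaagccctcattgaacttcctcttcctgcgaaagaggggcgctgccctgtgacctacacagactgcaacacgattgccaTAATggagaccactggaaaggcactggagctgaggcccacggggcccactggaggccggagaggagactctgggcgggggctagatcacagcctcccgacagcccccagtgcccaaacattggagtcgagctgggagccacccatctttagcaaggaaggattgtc
Hoxd3: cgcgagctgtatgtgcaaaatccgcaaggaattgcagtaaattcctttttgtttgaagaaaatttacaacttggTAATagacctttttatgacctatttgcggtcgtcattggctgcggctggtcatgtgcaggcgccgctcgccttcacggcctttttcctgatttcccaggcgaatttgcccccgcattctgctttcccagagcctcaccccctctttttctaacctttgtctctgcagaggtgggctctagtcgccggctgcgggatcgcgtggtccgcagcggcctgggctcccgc
Each held 1 TAAT, as did the Hoxb4 promoter, while that of Hoxa5 held 4 and that of Hoxd4 held 0. TAAT was found in 58.0% of the 32851 promoters of the table, so its presence is not particular to these genes. The motif TGATNNAT, a core bound by Hox proteins with Pbx, was in none of the 5 members' promoters and in 8.85% of all.

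Before the results, a property of the libraries has to be given. In replicates 1 to 5, 21 cell barcodes occurred in more than 1 library, and these barcodes took in 73 neurons, 20 of the 21 with the same subtype in every library. Of these neurons, 55 were among the 175 of NA2, 15 among the 62 of Ach2 and 3 among the 37 of Glut, and none was in another subtype. Results that rest on NA2 are therefore given with and without them, and without them NA2 has at least 10 neurons in 4 mice, not in replicate 2. The neurons of replicates 1 to 5 held 916296 to 1196621 unique molecular identifiers (UMIs, each 1 captured transcript) per mouse, and the median neuron held from 2207 UMIs in Ach1 to 6773 in NA3. Neuron markers were found in all subtypes, but NA3 and Ach1 also held satellite glia markers. Their summed level in NA3 was 259 ± 83.3 UMIs per 10000 (SD, n = 3 mice, 190 to 352), against means of 5.53 to 13.5 in the other 4 noradrenergic subtypes and 118 in the 1 mouse with at least 10 Ach1 neurons, and 10 of 10 of these markers were higher in NA3. Of the Schwann cell and the fibroblast markers, 8 each, 6 of each list were tested and 5 of each were also higher in NA3. Ach1 held a summed fibroblast level of 38.7 and an immune level of 6.03 in that mouse, above the NA3 means of 18.2 and 1.49. In NA3 all 4 neuron markers and all 5 sympathetic markers were lower than in the other 4. The part of these glial transcripts in the NA3 values was not tested.

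A member was found, meaning at least 1 UMI, in 496 of 1303 neurons (38.1%, exact 95% Clopper-Pearson interval 35.4 to 40.8), and the share over mice was 39.2% ± 4.34 (SD, n = 5). The other 807 neurons held none of the 10. A single member was found in 375 neurons, 2 in 102, 3 in 17 and 4 in 2. One of these last neurons, of NA1a, held Hoxb3, Hoxc4, Hoxc6 and Hoxd3, and the other, of NA3, held Hoxb3, Hoxc4, Hoxc5 and Hoxc6. The mean was 0.508 ± 0.0766 members per neuron. These shares follow depth: with every neuron thinned to 2000 UMIs, which left 813 of the 1002 neurons, the share with a member was 19.4% ± 3.03. At this depth a neuron without a UMI cannot be called negative. Intervals cover counting error only, and the free RNA in the droplets was not measured here, because the table holds no cell type that should lack Hox transcripts.

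The Hox transcripts came mainly from HoxC. All 25 Hox genes gave 1269 UMIs in 638 neurons (49.0%), and of these UMIs 1046 (82.4%) were of HoxC, 135 of HoxD, 66 of HoxB and 22 of HoxA. The 3 members in HoxC gave 696 of the 808 UMIs of the members. Hoxc4 is a group 4 gene of the neck and the first of its cluster in the axial order. It was found in more neurons than any other Hox gene (282, 21.6%, interval 19.4 to 24.0, 370 UMIs). Hoxc6, which is used from the first thoracic segments in the mouse, followed with 215 neurons (16.5%, 14.5 to 18.6, 292 UMIs). Over mice the shares were 20.5% ± 3.18 for Hoxc4 and 18.2% ± 5.37 for Hoxc6 (SD, n = 5), which lie within their spread of each other. Hoxc5, which lies between these genes in the axial order, was found in only 34 neurons (2.61%, 1.81 to 3.63), with 1 UMI in each. By paralog group, groups 1 to 3 were found in 78 neurons, groups 4 to 6 in 470 and groups 7 to 9 in 281.

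**Figure D1:**
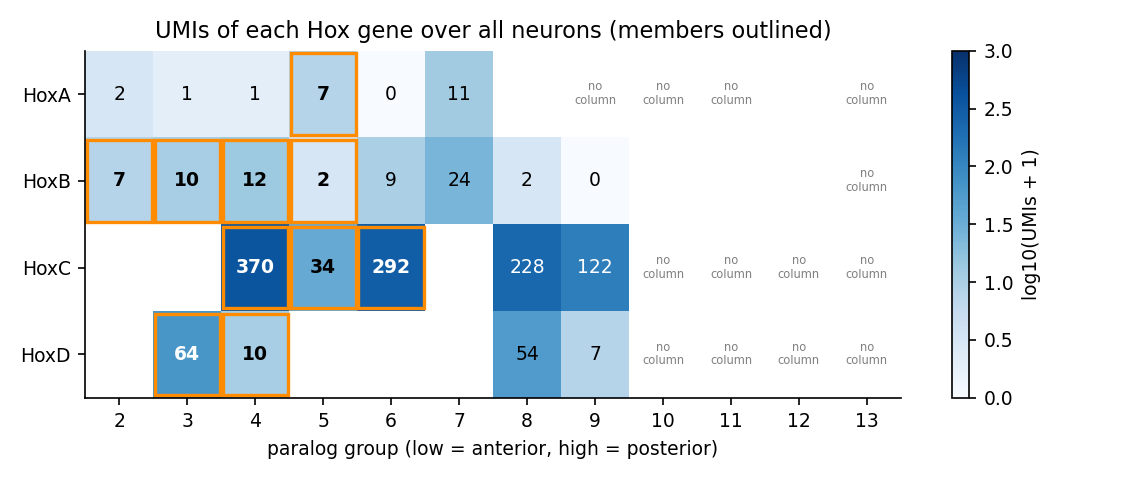
Each square is a Hox gene of paralog groups 2 to 13, with its cluster in the row and its paralog group in the column, and the number is its UMIs summed over all 1303 neurons; the colour is log10(UMIs + 1), members are outlined and genes without a column in the table are marked. HoxC holds the large values, 370 for Hoxc4 and 292 for Hoxc6, with 34 for Hoxc5 between them.

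Outside HoxC the members were sparse. Hoxd3, an anterior gene, was found in 60 neurons (4.60%, 64 UMIs) and its neighbour Hoxd4 in 10. In HoxB, Hoxb4 was found in 11 neurons, Hoxb3 in 10, Hoxb2 in 7 and Hoxb5 in 2, and Hoxa5 in 7. The intervals of Hoxa5, Hoxb2, Hoxb3, Hoxb4 and Hoxd4, from 0.216% to 1.51% of neurons, overlapped, so their order is open at this depth. Among the Hox genes that were no members, Hoxc8 was found in 157 neurons, Hoxc9 in 95, Hoxd8 in 52 and Hoxb7 in 22. Hoxa6, Hoxb1 and Hoxb9 had 0 UMIs, which allows a share of up to 0.230% of neurons. Genes of groups 8 and 9, which mark the thoracic trunk, were found in 257 neurons (19.7%, and 20.2% ± 1.99 over mice), so the code reached beyond the members.

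The shares of the abundant members varied between mice of the same condition. Hoxc4 was found in 20.6%, 23.4%, 17.6%, 17.0% and 23.9% of the neurons of replicates 1 to 5, a narrow range. Hoxc6 was found in 27.6%, 16.2%, 17.0%, 15.3% and 14.7%. Replicate 1 was thus high in Hoxc6 and not in Hoxc4, and it was the only mouse of the 5 in which Hoxc6 was found in more neurons than Hoxc4. Hoxc5 was steady, at 2.54% to 3.03%, and Hoxd3 ranged from 3.05% to 7.27%. In the 301 neurons of the other mouse names, Hoxc4 was found in 25.2% and Hoxc6 in 12.3%.

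Across subtypes, Hoxc4 was found in 97 NA1a, 70 NA1b, 51 NA1c, 30 NA2, 18 NA3, 6 Ach1, 7 Ach2 and 3 Glut neurons, so no subtype lacked it. Hoxc6 was found in 84, 33, 34, 21, 23, 8, 11 and 1 neurons in the same order. At least 1 of the 10 members was found in 50.3% of NA1a and 52.5% of NA3 neurons, the deeply sequenced subtypes, and in 35.0% of NA1b, 36.8% of NA1c, 27.4% of NA2 (30.8% without shared barcodes), 32.3% of Ach2, 21.9% of Ach1 and 16.2% of Glut neurons. At 2000 UMIs the spread narrowed: the shares were 21.04% ± 5.04 in NA1a, 19.1% ± 5.38 in NA1b, 24.5% ± 6.25 in NA1c, 14.2% ± 3.87 in NA2 (n = 5 mice each) and 24.7% ± 6.67 in NA3 (n = 3). Without the shared barcodes the NA2 share was 11.9% ± 6.64 (n = 4). These ranges overlapped, with NA2 lowest. On the scale of level, the mean UMIs per 10000 of a neuron, the members summed to 1.28 ± 0.273 in NA1a, 1.01 ± 0.300 in NA1b, 1.38 ± 0.319 in NA1c, 1.04 ± 0.381 in NA2 and 1.40 ± 0.452 in NA3. Without the neurons of shared barcodes the NA2 level was 0.800. The summed levels of the noradrenergic subtypes thus lay within about their own spread of each other.

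**Figure D2:**
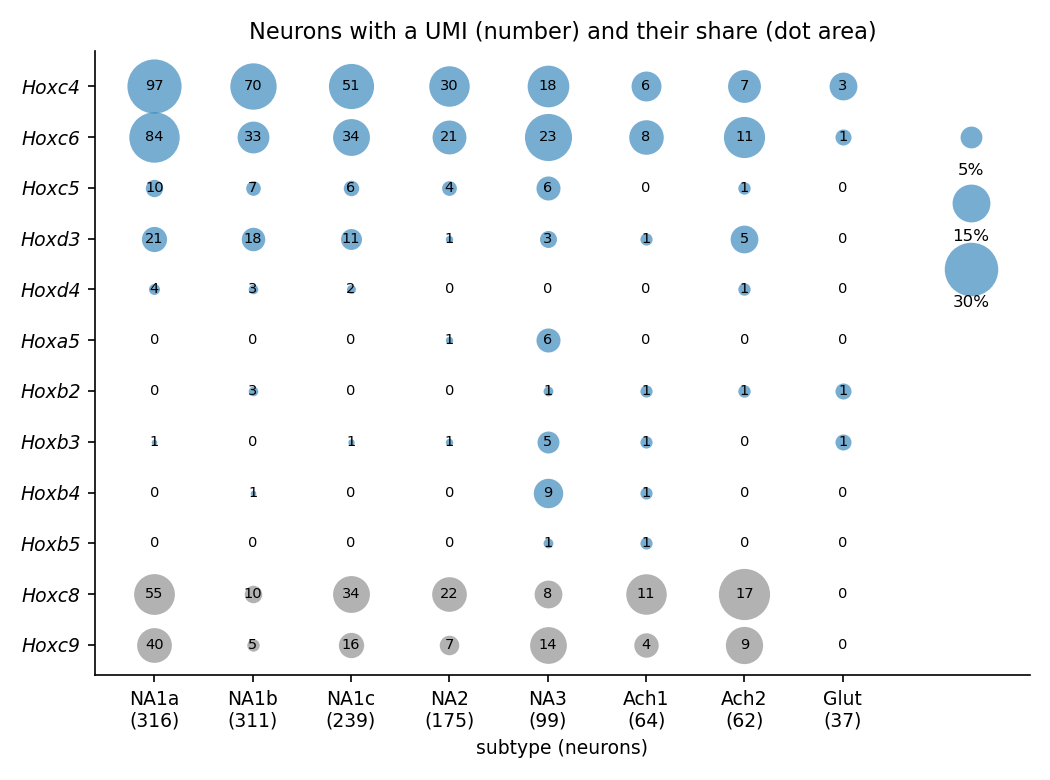
The share of the neurons of each subtype with at least 1 UMI of each Hox gene is drawn as the area of a dot, with the number of neurons on it, subtypes in columns (their neurons in brackets) and genes in rows, members in blue and Hoxc8 and Hoxc9 in grey. Hoxc4 and Hoxc6 were found in every subtype, and the HoxA and HoxB members mainly in NA3.

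The levels of single genes were compared over the 5 noradrenergic subtypes with limma, on the log2 of the mean UMIs per 10000 plus 0.1 of each mouse and subtype with at least 10 neurons, with the mouse as a block. The study's subtypes were clustered from these same cells, so a call measures only whether a difference recurred from mouse to mouse, and cannot stand as separate evidence. Of the 10 members, 4 passed the filter on low values (Hoxc4, Hoxc5, Hoxc6 and Hoxd3) and 6 did not. Levels differed over the 5 subtypes for 2 of these 4, while 49.0% of the 11737 genes tested were called in the same moderated F test, so the share of members is near the background. The adjusted p of limma's F test was 0.0418 for Hoxd3, 0.0420 for Hoxc4, 0.216 for Hoxc6 and 0.258 for Hoxc5. Of the 20 contrasts of a tested member's subtype with the other 4, 2 were called, both lower: Hoxc4 in NA3 and Hoxd3 in NA2. No member was called in NA1a, NA1b or NA1c, where 4.27%, 7.24% and 9.40% of all genes were called higher and 1.70%, 4.19% and 6.30% lower. None was called higher in NA2 or NA3 either, where 14.6% and 8.84% of all genes were. Both F test calls are close to the threshold and were lost without the neurons of shared barcodes (adjusted p = 0.130 and 0.0674).

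Hoxc4 was low in NA3. In NA3 its level was 0.418, 0.202 and 0.168 UMIs per 10000 in replicates 2, 4 and 5, the mice with at least 10 neurons of this subtype. In NA1a the level was 0.529, 0.650, 0.274, 0.447 and 0.693 in replicates 1 to 5, and in NA1b it was 0.556, 0.548, 0.324, 0.422 and 0.690. NA3 was below every other noradrenergic subtype of the same mouse in all 3 mice, although its 0.418 in replicate 2 overlapped values of other mice. In NA1c the level was 0.371, 1.08, 0.655, 0.519 and 0.818, and in NA2 it was 0.609, 0.700, 0.341, 1.00 and 0.524. The order of means was NA1c (0.689), NA2 (0.635), NA1a (0.519), NA1b (0.508) and NA3 (0.263), and neighbours among the first 4 differed by less than their SDs of 0.140 to 0.275. In the fit the log2 level in NA3 was lower than the mean of the other 4 by 1.11 (log2 difference -1.11, SE 0.33, limma adjusted p = 0.0149), in a contrast in which 5.61% of all genes were called lower. The call was lost without replicate 4 (adjusted p = 0.0786), without replicate 5 (0.192) and with neurons of at least 2000 UMIs only (0.0898). NA3 is also the subtype with the high glial markers, and its neurons with Hoxc4 had a median summed glial level of 207 against 286 UMIs per 10000 in those without, at a median depth of 11657 against 5614 UMIs. In the same contrast the neuron and the sympathetic markers had median log2 differences of -1.02 and -0.95, close to that of Hoxc4. Whether the lower Hoxc4 is separate from theirs was not tested.

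Hoxd3 was nearly absent from NA2. Its level there was 0 in replicates 1, 2, 4 and 5 and 0.0111 UMIs per 10000 in replicate 3, from 1 UMI in 1 of 175 neurons. In NA1a it was 0.0968, 0.286, 0.128, 0.0876 and 0 in replicates 1 to 5, and in NA1b it was 0.133, 0.0777, 0.209, 0.0576 and 0.101. NA1b lay above NA2 in every mouse, while NA1a and NA1c each had 1 mouse at 0. NA3 had a mean of 0.0428 and ran from 0 to 0.105 over 3 mice, which overlaps NA2. Over all neurons, 1 of 773278 UMIs in NA2 was of Hoxd3 against 56 of 5620982 in the other 4, a ratio of 0.130 (exact interval 0.00323 to 0.753, counting error only), and 0.154 (0.00384 to 0.896) without the neurons of shared barcodes. At the rate of the other 4, NA2 would have held 6.89 UMIs of Hoxd3. In the fit the log2 difference of NA2 from the mean of the other 4 was -0.91 (SE 0.28, limma adjusted p = 0.00786). This contrast was called under 13 of 13 alternatives, with adjusted p = 0.0389 without the shared barcodes, while the F test of Hoxd3 was called under 2 of 13. In this contrast 32.0% of all genes were called lower and the median over all genes was -0.33, so a lower value in NA2 is common. The highest levels of Hoxd3 were in Ach2, 0.394 and 0.231 in replicates 1 and 4, from 5 neurons in all.

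**Figure D3:**
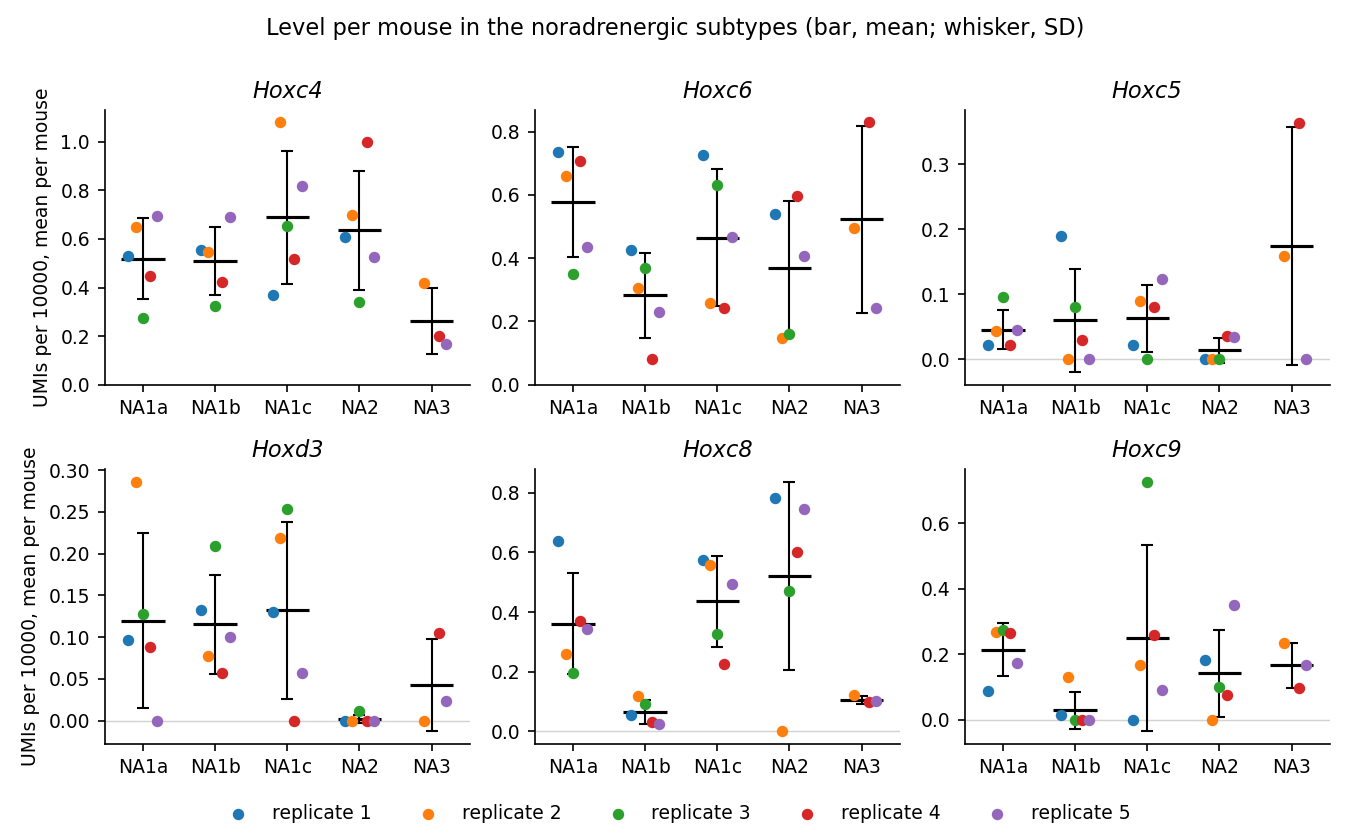
Points are the levels of single mice (mean UMIs per 10000) in each noradrenergic subtype, coloured by replicate, and bars and whiskers are the mean and SD over mice, for Hoxc4, Hoxc6, Hoxc5, Hoxd3, Hoxc8 and Hoxc9. Hoxc4 in NA3 (0.168 to 0.418) and Hoxd3 in NA2 (0 to 0.0111) lie low, and Hoxc8 is low in NA1b (0.0249 to 0.119) and in NA3 (0.0965 to 0.120).

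Hoxc6 and Hoxc5 were called in no subtype. The level of Hoxc6 was 0.737, 0.659, 0.351, 0.708 and 0.437 in NA1a in replicates 1 to 5, and 0.427, 0.306, 0.367, 0.0811 and 0.231 in NA1b. NA1a was above NA1b in 4 of 5 mice, the exception being replicate 3. The order of means was NA1a (0.578), NA3 (0.522), NA1c (0.465), NA2 (0.370) and NA1b (0.282), with SDs of 0.134 to 0.295 that exceed each step. The log2 difference of NA1b from the other 4 was -0.63 (SE 0.30, limma adjusted p = 0.180). Hoxc5 had its highest mean in NA3, 0.174 ± 0.182, from 0.159, 0.364 and 0 in replicates 2, 4 and 5, which spans the values of all other subtypes. Without replicate 5 it was called higher in NA3 (adjusted p = 0.0278) and lower in NA2 (0.0426).

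The members of HoxA and HoxB were found mainly in NA3. At least 1 of Hoxa5, Hoxb2, Hoxb3, Hoxb4 and Hoxb5 was found in 21 of 99 NA3 neurons (21.2%) and in 14 of the 1204 neurons of the other 7 subtypes. Hoxb4, the HoxB paralog of Hoxc4, was found in 9 NA3 neurons, of which replicates 1 to 5 held 1, 1, 1, 0 and 6, and in 1 NA1b and 1 Ach1 neuron. Hoxa5, a group 5 gene, was found in 6 NA3 neurons, of which replicates 1 to 5 held 1, 1, 1, 1 and 2, and in 1 NA2 neuron. So Hoxa5 was found in NA3 of each of the 5 mice, while 6 of the 9 NA3 neurons with Hoxb4 were of replicate 5. These are counts and not shares: only replicates 2, 4 and 5 had at least 10 NA3 neurons. Hoxb3 was found in 5 NA3 neurons, of which 3 were of replicate 2. All 5 genes failed the filter on low values, so no test of them is given here. A nearby gene that is no member, Hoxb7, was found in 16 of 99 NA3 neurons, at levels of 0.102, 0.375 and 0.164 UMIs per 10000 in replicates 2, 4 and 5. It passed the filter only through NA3, so no test of it is given. Hoxb3os, a noncoding RNA of the opposite strand at Hoxb3 and Hoxb2, was higher in NA3 by a log2 difference of 1.81 (SE 0.31, limma adjusted p = 1.39e-05), with 8.84% of all genes called higher. NA3 neurons with a HoxA or HoxB member had a median summed glial level of 226 against 278 UMIs per 10000 in those without, and 5741 against 7086 UMIs. Over all HoxA and HoxB genes the glial levels ran the other way, 289 in neurons with one against 217 in those without, with 8977 against 5679 UMIs.

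Beyond the members, the posterior genes of HoxC took a smaller share of its transcripts in NA1b. Hoxc8 and Hoxc9 follow Hoxc6 in the cluster and begin further back in the trunk. In NA1b they gave 15 of 150 HoxC UMIs (10.0%, interval 5.71 to 16.0), and the shares in replicates 1 to 5 were 8.00%, 19.4%, 13.3%, 5.26% and 4.35%. In NA1a the share was 34.0%, with 36.7%, 29.4%, 41.9%, 36.4% and 32.3% over the same mice. NA1b lay below NA1a and NA1c, whose lowest mice had 29.4% and 27.3%, with no overlap, while NA2 had a mouse at 0. NA3 had 27.3%, 18.2% and 30.8% in replicates 2, 4 and 5. These lay above NA1b of the same mouse, but the 18.2% was below the 19.4% of NA1b in replicate 2. The other pooled shares were 36.4% in NA1c, 39.2% in NA2 (41.3% without shared barcodes), 30.4% in NA3, 51.5% in Ach1 and 63.9% in Ach2. Ach2 was highest, with 39 of 61 UMIs, and its 2 mice with at least 10 neurons had 44.4% and 62.5%. Glut gave 4 HoxC UMIs in all, too few to place it.

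**Figure D4:**
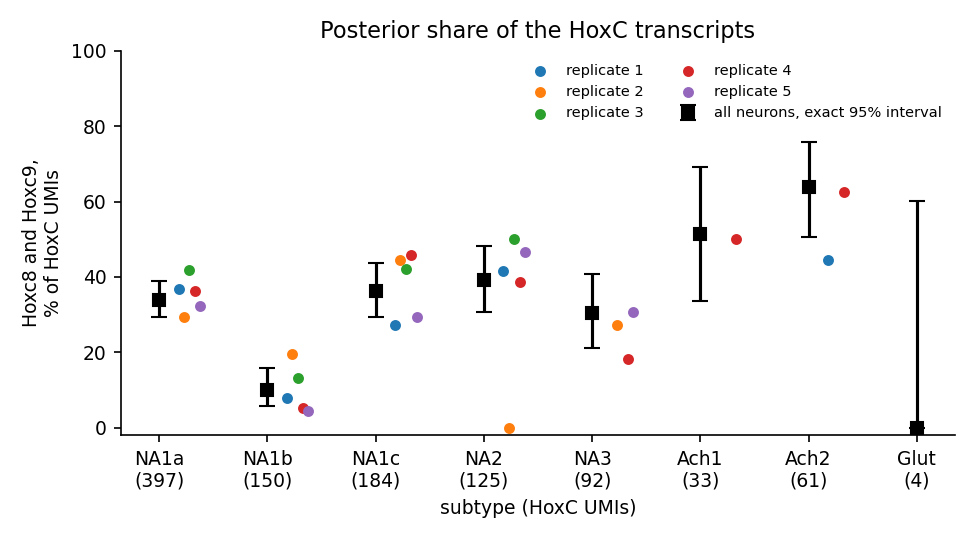
Points are the percent of HoxC UMIs that belong to Hoxc8 or Hoxc9 in single mice, and squares with lines are the pooled percent of each subtype with its exact 95% interval. NA1b, at 10.0%, lies below the others except Glut, which has 4 UMIs, and Ach2, at 63.9%, lies highest.

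The level of Hoxc8 in NA1b was 0.0561, 0.119, 0.0924, 0.0310 and 0.0249 UMIs per 10000 in replicates 1 to 5, against 0.638, 0.259, 0.196, 0.369 and 0.344 in NA1a. These 2 subtypes did not overlap. NA3 was also low, at 0.0965 to 0.120 in its 3 mice, which overlaps NA1b, and NA2 had a mouse at 0. In the fit the log2 difference of NA1b was -1.31 (SE 0.35, limma adjusted p = 0.00871) for Hoxc8 and -1.10 (SE 0.35, adjusted p = 0.0315) for Hoxc9, with 4.19% of all genes called lower in NA1b. The Hoxc8 call was lost without replicate 1 (adjusted p = 0.0674) and without replicate 5 (0.0749), while the F test of Hoxc8 gave an adjusted p of 0.00221 and also missed the threshold without replicate 5 (0.0579). The F test of Hoxc9 did not pass (0.0614), and its call in NA1b was lost in 6 of 13 alternatives: without the shared barcodes (0.0507), with no filter (0.0938), with a pseudocount of 1 (0.0696) and without replicate 3 (0.128), 4 (0.106) or 5 (0.134). In NA2 the difference of Hoxc8 was 0.72 (limma adjusted p = 0.0825), and without the shared barcodes it was 1.55 and called higher (adjusted p = 0.000300), as were 11.0% of all genes. Leaving out these barcodes also removes NA2 of replicate 2, where Hoxc8 had a level of 0. Without replicate 2 alone the difference was 1.36 (limma adjusted p = 0.00128). Without replicate 1, 3, 4 or 5 it was not called (adjusted p = 0.191 to 0.354). Hoxc4, in contrast, differed little between NA1b and NA1a, with means of 0.508 and 0.519. At 2000 UMIs, 36 comparisons of single genes between pairs of the 4 subtypes with 5 mice were tested by an exact two-sided sign-flip permutation test, whose smallest p is 0.0625. It was reached by 7 of them and none passed, with an adjusted p of 0.321. In these 7 the 5 mice moved 1 way: Hoxc4 was higher in NA1c than in NA1a and NA2, Hoxc6 in NA1a than in NA2, Hoxd3 in NA1b than in NA2, Hoxc8 lower in NA1b than in NA1a and NA1c, and Hoxc9 lower in NA1b than in NA1a.

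Co-detection of members was then described at equal depth. For each pair the share of neurons with both was divided by the product of the 2 shares within a mouse, at 2000 UMIs, and summed over the 5 mice, so that 1 is what independent detection gives. Of the 45 pairs of members, 23 were ever found together in a neuron and 22 never, and 3 were found together in at least 10 neurons. Hoxc4 and Hoxc6 were found together in 67 neurons, with a ratio of 1.09 and values of 1.01, 1.00, 0.123, 1.91 and 1.14 in replicates 1 to 5. So, summed over mice at equal depth, these genes were found together about as often as the product of their shares. Without the correction for depth the ratio was 1.48. Hoxc4 and Hoxd3 were found together in 25 neurons with a ratio of 2.09, but in only 2 of 5 mice was it above 1. Hoxc6 and Hoxd3 were found together in 18 neurons, with a ratio of 1.14, above 1 in 2 of 5 mice. The planned measure, the geometric mean over mice, gave lower values. It was 0.771 for Hoxc4 with Hoxc6, 1.02 for Hoxc4 with Hoxd3 and 0.817 for Hoxc6 with Hoxd3. No pair of members was above 1 in all 5 mice.

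Pairs with genes outside the set spread further. Hoxc8 and Hoxc9, neighbours in the cluster, were found together in 37 neurons with a ratio of 2.84, above 1 in 5 of 5 mice, and within subtypes the ratio was 2.63, above 1 in 4 of 5. Hoxc6 and Hoxc9 were found together in 42 neurons with a ratio of 2.14, above 1 in 4 of 5 mice, and 1.98 within subtypes. Hoxc4 and Hoxc9, far apart in the cluster, were found together in 22 neurons with a ratio of 0.364, below 1 in 5 of 5 mice, and within subtypes the ratio was 0.393. At the neurons' own depth that ratio was 1.13, with 2 of 5 mice above 1, so its direction depends on the thinning to equal depth. Hoxc4 with Hoxc8 (0.916, 44 neurons) and Hoxc6 with Hoxc8 (0.886, 49 neurons) were close to 1 as sums, but single mice ran from 0.349 to 1.15 and from 0.509 to 1.66. At the neurons' own depth these ratios were 1.25 and 1.65, the latter above 1 in 5 of 5 mice. These ratios come from few neurons, no test was made, and their points share libraries and depth.

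**Figure D5:**
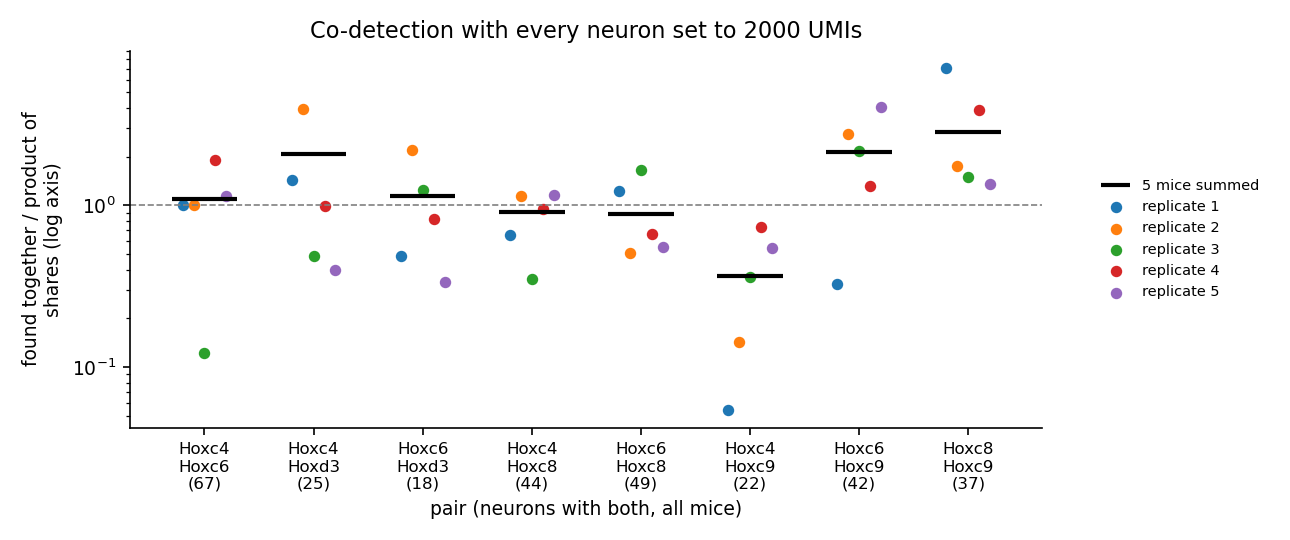
Points are the ratios of single mice at 2000 UMIs, on a log axis, of the share of neurons with both genes to the product of their shares, bars are the 5 mice summed, and the dashed line at 1 marks independent detection. Hoxc8 with Hoxc9 lies above 1 in 5 of 5 mice, and Hoxc4 with Hoxc9 below 1 in 5 of 5. Hoxc4 with Hoxc6 lies near 1 in replicates 1, 2 and 5, at 0.123 in replicate 3 and at 1.91 in replicate 4.

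Neuron by neuron, the gene of HoxC with the highest paralog group that was found was Hoxc4 in 181 neurons, Hoxc5 in 22, Hoxc6 in 142, Hoxc8 in 120 and Hoxc9 in 95, and 743 neurons had none. In NA1b it was Hoxc4 in 62 and Hoxc8 or Hoxc9 in 14 of 311 neurons, while in NA1a it was Hoxc4 in 46 and Hoxc8 or Hoxc9 in 81 of 316. These counts are at the neurons' own depth, with a median of 3252 UMIs in NA1b and 6524.5 in NA1a. No HoxC gene was found in 199 NA1b and 135 NA1a neurons. The part of depth in this difference was not tested. A few neurons carried virus transcripts. Of 6 neurons with GFP, placed in the heart, 3 held a member (Hoxc4 in 2 and Hoxc6 in 3), and of 20 with tdTomato, placed in the paws, 8 held one (Hoxc4 in 7, Hoxc6 in 3 and Hoxc5 in 2). The shares of 50% (11.8 to 88.2) and 40.0% (19.1 to 63.9) cannot be told apart at this number of neurons.

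Of the proteins that act with Hox genes, the TALE cofactors had 9 genes in the table. Of these 7 were tested, and 3 passed the F test beside 49.0% of all genes. In NA2 3 of the 7 were lower and none higher, beside 32.0% and 14.6% of all genes, with a median of -0.71 against -0.33. Meis1 was lower there by a log2 difference of -1.41 and Pknox1 by -1.54, both cofactors that bind beside Hox proteins. Without the shared barcodes these differences were -1.60 and -1.32, and 2 of 7 were lower beside 25.1% of all genes. Of the 15 Polycomb and trithorax genes, 14 were tested. In the F test 9 of 14 passed beside the same 49.0%. In NA2 7 of the 14 were lower and 1 higher, beside 32.0% and 14.6% of all genes. Kmt2a, the trithorax methyltransferase that keeps Hox genes active, had a log2 difference of -2.24 in NA2 (SE 0.20, limma adjusted p = 2.06e-13), and -1.83 without the shared barcodes. The demethylases Kdm6b and Kdm6a had -1.65 and -1.44 there (-1.66 and -1.34 without the shared barcodes), and the Polycomb gene Pcgf2 had -1.38 (-1.73). Without these neurons 6 of 14 passed the F test, beside 42.8% of all genes. In NA2 7 were still lower, beside 25.1% of all genes. Of the 22 axial patterning and retinoic acid genes, 14 were tested and 7 passed, close to the share of all genes. Phox2a, a regulator of autonomic neurons, was higher in NA2 by 1.92 (1.72 without the shared barcodes), Rxrg, a retinoid receptor, higher in NA3 by 2.38, Hand2 lower in NA3 by a difference of -1.01, and Gata2 higher in NA1c by 0.88.

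The genes whose level over the 23 profiles of mouse and subtype was most like the summed level of the members were Zc3h6 (Pearson r 0.708), Ubqln1 (0.685), Nubp1 (0.683), Coq5 (0.681) and Wdr41 (0.660). The profiles share mice and libraries, and the r is a description chosen as the highest of all genes tested.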

How the data were processed

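Single stellate ganglion neurons of 8 mice were sequenced on the 10x platform. Per the paper's methods and the submitters' processing notes, the authors aligned reads with Cell Ranger 2.1.1 to GRCm38 with Ensembl release 98 genes, kept cells with 500 to 6000 genes, under 20000 UMIs and under 15% mitochondrial transcripts, normalised and clustered them with Seurat version 3, and named the subtypes. No removal of doublets is named, and none was made here, so doublets remain possible. As deposited, a value is a natural log, taken of UMIs per 10000 with 1 added. Dividing by each cell's smallest step gave whole UMIs for 100% of values above 0 (tolerance 0.01), but the deposited unit is not a count, and limma was used. UMIs are 3′ tags and were not divided by gene length. A second column of the symbol Hoxd4 (2 UMIs in 2 neurons) was left out.

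Levels are means over neurons of UMIs per 10000, per mouse and subtype with at least 10 neurons. limma 3.58.1 (R 4.3.3) was fitted to log2(level + 0.1) with an intensity trend over 23 profiles of NA1a, NA1b, NA1c, NA2 and NA3, for genes at 0.1 or more in at least 3 profiles. It gave a moderated F test over subtypes and each subtype against the mean of the other 4, with Benjamini-Hochberg adjustment over 11737 genes and a threshold of 0.05. Differences are on this log2 scale, which understates those of low genes. The mouse was the block because profiles of a mouse come from 1 animal (mean correlation of residuals 0.0484 within mice, -0.0629 between). Samples are animals, and p-values measure the spread between the mice of 1 batch. The script was tested on simulated data. Thinning used the expected hypergeometric share at 2000 UMIs, or 1000 as an alternative. Other alternatives were a filter of 0.5 or none, a pseudocount of 1, no block, at least 5 neurons, summed UMIs, neurons with at least 2000 UMIs, added Ach2 profiles and each mouse left out. Leaving out the neurons of shared barcodes was added after these were seen. Python 3.11.15, NumPy 2.4.6, pandas 2.3.3 and SciPy 1.17.1 were used.

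The members and lists were chosen with earlier results of these data known. Named were the 10 members, the other Hox genes in at least 10 neurons, of other lists at most 4 genes called in a contrast by smallest p, and the 5 genes most like the members' summed level. Some values are not reported here. Hoxa6, Hoxb1, Hoxb9, the listed noncoding RNA and single comparisons of pairs were named after their values were seen.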

Additional observations from a re-analysis of the deposited data

Results flagged for a closer look

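In 3 of 31 groups of mice examined, the value of a single mouse lay far from the others by Dixon's criterion. Chance flags about 1 in 20 groups. The level of Hoxb4 over all neurons was 0.104 UMIs per 10000 in the highest mouse, replicate 5, against a median of 0.00360, and this mouse held 6 of the 9 NA3 neurons with Hoxb4. The level of Hoxd3 in NA2 was 0.0111 in replicate 3 and 0 in the other 4 mice, which is 1 UMI. The level of Hoxc9 in NA1b was 0.131 in the highest mouse, replicate 2, against a median of 0.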

How the results depend on the processing

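The share of neurons with a member (39.2%) was 19.4% at 2000 UMIs, 10.7% at 1000 UMIs and 14.9% with at least 2 UMIs, and members per neuron (0.508) were 0.214 and 0.112 at these depths, since fewer UMIs per neuron find fewer genes. Without each mouse in turn they were 37.8% to 40.7% and 0.480 to 0.534. Pairs above 1 in every mouse numbered 0, 1 at the neurons' own depth (Hoxc6 with Hoxd3) and 0 to 1 without each mouse in turn. Members called by the F test (2) numbered 1 with a filter of 0.5, with a pseudocount of 1 and with neurons of at least 2000 UMIs. They numbered 0 with at least 5 neurons, with summed UMIs, with Ach2 added and without the shared barcodes, and 0 to 1 without each mouse in turn. Contrasts of members called (2) numbered 1 with a filter of 0.5, at which 2 members could be tested, 4 with no filter, at which 9 could, and 1 to 4 without each mouse in turn. The calls added with no filter were Hoxa5 and Hoxb4 in NA3, where most neurons with these genes were found, so they carry no weight. Without the mouse as a block, the F test called 1 member and the contrasts 1, the lower Hoxc4 in NA3 being lost (limma adjusted p = 0.0515). Of 221 values of single genes under alternatives, 173 kept direction and side of the threshold, 43 lost the threshold, 5 gained it and 0 reversed. Except as stated, the cause was not tested. Depth limits the sparse members: 6 of 10 could not be tested.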
